A study of Rattus norvegicus with 4 samples.

Results

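The genes described here are 10 genes of triglyceride and lysophospholipid handling: *Gpam*, *Agpat2*, *Lpin1*, *Lpin2*, *Lpin3*, *Dgat1*, *Dgat2*, *Pnpla2*, *Pnpla3* and *Mfsd2a*. They were chosen by symbol, out of 16999 gene symbols analysed, with earlier results of the same libraries known, because *Lpin1* and *Mfsd2a* were higher after both anesthetics. Their differences after anesthesia are therefore a description of these libraries and carry no test. All 10 genes were listed in every library, and 9 reached a level above 2 TPM in at least 1 library (TPM is a level per library total, corrected for transcript length).

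The libraries came from livers of wild type rats (*Rattus norvegicus*) that inhaled either sevoflurane at 4.5% or desflurane at 6%, both halogenated ether anesthetics used in surgery. For each agent, 1 library came from a rat killed by decapitation as soon as it lost consciousness (0 h, the control of that agent) and 1 from a rat kept under the agent for 6 h. Each of the 4 groups thus held 1 library, so no error between animals can be given, and every value below is that of a single liver. The strain, age and sex were not given in the labels. Controls and anesthetized rats were harvested 6 h apart in the day, per the submitters, and therefore the length of anesthesia and the time of day cannot be told apart. Both agents' controls also inhaled the agent, although briefly.

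Triglyceride is built on glycerol 3-phosphate by stepwise addition of fatty acids. GPAM (mitochondrial glycerol-3-phosphate acyltransferase) adds the first and AGPAT2 the second, giving phosphatidate. Lipins then remove the phosphate to leave diacylglycerol, and DGAT1 and DGAT2 attach the last fatty acid. Stored triglyceride is opened by PNPLA2 (adipose triglyceride lipase), and PNPLA3 is a related protein of the lipid droplet surface. Lipin 1 has an additional role in the hepatocyte nucleus as a partner of the coactivator PGC-1α and the fatty acid receptor PPARα. MFSD2A carries lysophosphatidylcholine across membranes and is known for supplying the brain with docosahexaenoic acid, and its liver transcript is known to rise on fasting.

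The ratio of coverage to FPKM in the files put the aligned sequence at between 3.50 and 5.57 Gb per library, least in the sevoflurane 0 h library, and a gene at 2 TPM had a mean coverage of 4.72 to 7.28 reads per base. All 8 hepatocyte markers were above 2 TPM in each library, with a summed level between 96612 and 108611 TPM. Of 8 adipocyte markers, the defining genes *Adipoq*, *Lep* and *Plin1* were listed at 0 in all 4 libraries, and the list summed to 173 and 105 TPM at 0 h and 6 h of sevoflurane and to 164 and 124 TPM at 0 h and 6 h of desflurane. The largest single part of this sum was *Adipor2*, an adiponectin receptor that liver itself expresses, at 121 and 55.6 TPM and at 114 and 61.0 TPM. Without it the other 7 genes summed to 51.4 and 49.8 TPM and to 50.4 and 63.4 TPM. Most of that was *Cidec* at 30.9 to 41.6 TPM and *Cfd* at 15.5 to 19.7 TPM, with *Fabp4* at 2.01 to 3.14 TPM. In each library 4 of the 8 adipocyte markers were thus above 2 TPM. Kupffer cell markers (7 measured) summed to between 232 and 312 TPM, those of endothelial cells (7) to between 62.5 and 75.3 TPM, those of stellate cells (7) to between 51.5 and 58.9 TPM and those of cholangiocytes (6) to between 26.1 and 27.4 TPM. In bulk liver, fewer cells of a type and less RNA per cell cannot be told apart.

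A gene was called higher or lower where its larger TPM was above 2 and the ratio of the 2 libraries was above 2, a rule of size and not of significance. Changes are also given as differences of log2(TPM + 1), a scale that understates the change of low genes. With sevoflurane, 5.04% of the 8270 genes above the minimum were called higher at 6 h and 3.71% lower. With desflurane, 4.1% of 8372 genes were called higher and 5.55% lower. Of the 9 genes described here that were above the minimum, 4 were called higher and 1 lower with each agent. These were *Lpin1*, *Lpin2*, *Mfsd2a* and *Pnpla2* on the higher side and *Gpam* on the lower side in both comparisons. Nothing is read from these counts, since the genes were selected on these very contrasts.

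The promoter windows of the called genes are shown first, so that the sequence at their annotated starts stands beside their levels. *Gpam* was lower at 6 h and the other genes shown were higher. Each window runs from 250 bases before to 50 bases after an annotated start in the RefSeq table of the GRCr8 build. A promoter window was available for 7 of the 10 genes and, among the 5 called ones, for all but *Mfsd2a*. The start used for *Lpin1* lies inside the gene, which spans 106736 bases in that build. The windows are chr6:45108893-45109192 on the minus strand for *Lpin1*, chr9:118530105-118530404 on the plus strand for *Lpin2*, chr1:205982029-205982328 on the plus strand for *Pnpla2* and chr1:264175862-264176161 on the minus strand for *Gpam*. Letters are 5′ to 3′ along the gene, and capitals mark the motifs found among those searched.
Lpin1: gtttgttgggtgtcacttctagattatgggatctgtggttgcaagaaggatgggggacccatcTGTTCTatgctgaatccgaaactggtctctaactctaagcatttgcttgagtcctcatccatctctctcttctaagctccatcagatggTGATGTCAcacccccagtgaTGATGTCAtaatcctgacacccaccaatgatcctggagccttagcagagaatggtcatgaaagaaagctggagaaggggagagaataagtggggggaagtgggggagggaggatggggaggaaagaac
Lpin2: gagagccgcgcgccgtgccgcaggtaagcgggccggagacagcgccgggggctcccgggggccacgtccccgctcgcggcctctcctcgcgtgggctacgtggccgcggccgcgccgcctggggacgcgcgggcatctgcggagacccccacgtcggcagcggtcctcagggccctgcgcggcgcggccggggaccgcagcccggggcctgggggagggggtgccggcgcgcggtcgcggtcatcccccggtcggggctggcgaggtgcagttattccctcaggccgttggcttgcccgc
Pnpla2: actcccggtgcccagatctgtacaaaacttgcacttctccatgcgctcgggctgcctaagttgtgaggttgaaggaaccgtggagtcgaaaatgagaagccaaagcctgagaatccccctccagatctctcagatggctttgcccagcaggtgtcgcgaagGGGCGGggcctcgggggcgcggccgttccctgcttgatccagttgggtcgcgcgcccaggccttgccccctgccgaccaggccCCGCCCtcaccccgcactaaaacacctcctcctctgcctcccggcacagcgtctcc
Gpam: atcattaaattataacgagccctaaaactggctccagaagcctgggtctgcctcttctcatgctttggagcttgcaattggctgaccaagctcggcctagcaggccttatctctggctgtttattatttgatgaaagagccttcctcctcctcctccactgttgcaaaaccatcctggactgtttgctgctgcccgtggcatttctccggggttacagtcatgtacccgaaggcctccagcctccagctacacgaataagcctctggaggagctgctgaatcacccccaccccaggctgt

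The motifs searched, on both strands, were the cyclic AMP response element (TGACGTCA), its variant TGATGTCA, the E-box (CACGTG), the D-box (TTATGTAA), the glucocorticoid response element by name and its 6-letter half-site (AGAACA, which the whole element contains), the PPAR direct repeat by name, a FOXO site (TGTTTAC), a sterol element (TCACNCCAC) and the GC box (GGGCGG). The *Lpin1* window held 2 copies of TGATGTCA, which began 98 and 78 bases before the start, and 1 half-site on the opposite strand that began 187 bases before it. None of these matches overlapped another. The variant was added to the search after the *Lpin1* window had been read, so its presence there is no result, and 4.26% of all 27457 promoters held at least 1 copy. The half-site occurred in 20.1% of promoters. The *Pnpla2* window held 2 GC boxes, a motif present in 34.9% of promoters, that began 89 and 6 bases before the start. The windows of *Lpin2* and *Gpam* held none of the motifs. They differed widely in composition, as GC made up 80% of the *Lpin2* window and 49% of that of *Lpin1*, against a median of 52.3% over all promoters. A match of letters is a description and not a binding site.

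**Figure D1:**
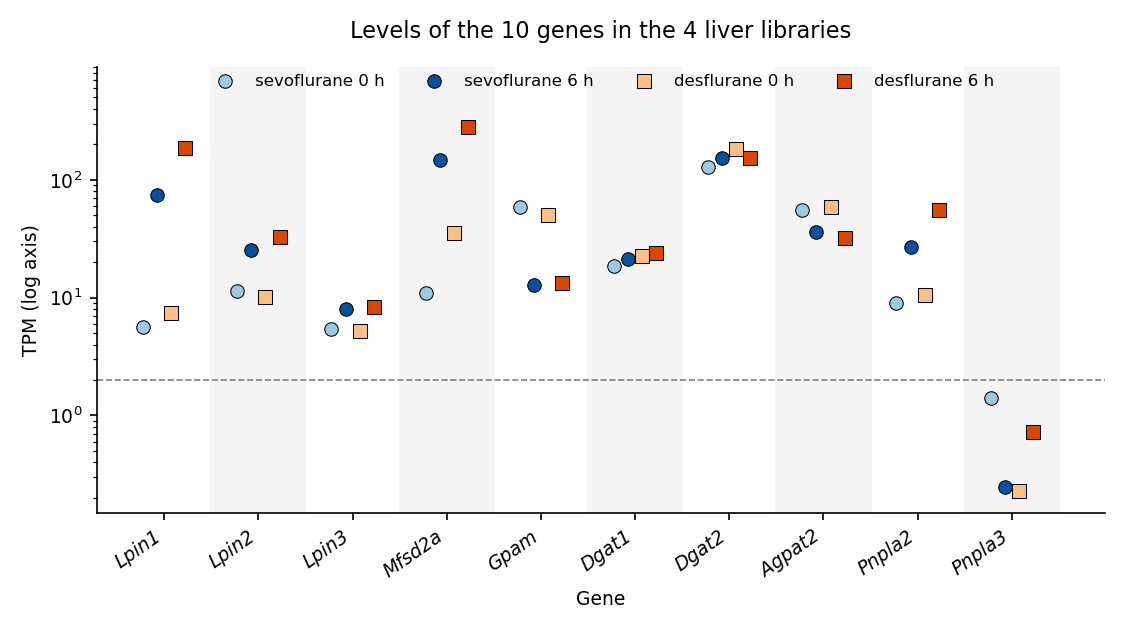
TPM (log axis) of the 10 genes in the 4 libraries, 1 point per library and therefore without error bars. The dashed line marks 2 TPM. Both 6 h points lie above both 0 h points for *Lpin1*, *Lpin2*, *Mfsd2a* and *Pnpla2* and below them for *Gpam*, and all 4 points of *Pnpla3* lie under the line.

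*Gpam*, which commits fatty acids to glycerolipid synthesis, was the only one of the 10 genes called lower. It is annotated at chr1:275847064-275906686 (rn6, minus strand). Its level was 59.0 TPM at 0 h and 12.8 TPM at 6 h of sevoflurane, and 50.2 TPM at 0 h and 13.3 TPM at 6 h of desflurane. Both controls lay far above both anesthetized livers, and the 6 h values lay close to each other. The level at 6 h was 4.62-fold lower with sevoflurane and 3.76-fold lower with desflurane. On the log2 scale the changes were -2.12 and -1.84, the 24th lowest of 8270 genes and the 40th lowest of 8372.

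*Agpat2*, whose product makes phosphatidate (chr3:4044741-4055384, rn6, minus strand), was also below its controls, but by less. Its levels were 55.3 and 36.4 TPM at 0 h and 6 h of sevoflurane and 58.9 and 32.4 TPM at 0 h and 6 h of desflurane. The 6 h level was 1.52-fold lower with sevoflurane and 1.82-fold lower with desflurane, both short of a call. On the log2 scale these differences were -0.59 and -0.84, against a difference between both controls of 0.09.

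*Lpin1* (chr6:41799748-41870046, rn6, minus strand) showed the largest ratio of the 10 genes with desflurane. Its level was 5.58 TPM at 0 h and 74.0 TPM at 6 h of sevoflurane, and 7.43 TPM at 0 h and 186 TPM at 6 h of desflurane. Both controls were low and close to each other, with a ratio of 1.33, and both anesthetized livers were far above them. The 6 h level was 13.3-fold higher with sevoflurane and 25.0-fold higher with desflurane, and the log2 changes were 3.51 and 4.47. These ranked 16th highest of 8270 genes and 6th highest of 8372. The mean coverage behind the 4 levels was 13.2, 253, 25.6 and 675 reads per base, in the same order.

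*Lpin2* (chr9:119517101-119591533, rn6, plus strand), a lipin that is abundant in liver, was called higher with both agents by a smaller ratio. It stood at 11.3 and 25.4 TPM at 0 h and 6 h of sevoflurane and at 10.2 and 32.5 TPM at 0 h and 6 h of desflurane. The ratios were 2.23 and 3.18, and the former is the smallest ratio among the calls of these genes between 6 h and 0 h. *Lpin3* (chr3:156886454-156899438, rn6, plus strand) was the lowest of the lipins at 6 h and was not called. Its 0 h and 6 h levels were 5.38 and 7.98 TPM with sevoflurane and 5.23 and 8.27 TPM with desflurane, which gave ratios of 1.48 and 1.58. Even so, both 6 h values lay above both controls.

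The makeup of the lipin transcripts therefore differed between 0 h and 6 h. Summed over the 3 genes, lipin transcripts came to 22.3 TPM at 0 h and 107 TPM at 6 h of sevoflurane, a ratio of 4.81. With desflurane they came to 22.9 and 226 TPM, a ratio of 9.89. *Lpin1* made up 25.0% of this sum in the control of sevoflurane and 32.5% in that of desflurane, but 69.0% and 82.0% after 6 h of the respective agents. *Lpin2* was the leading lipin in both controls, at 50.9% and 44.7%, and made up 23.6% and 14.3% at 6 h. The share of *Lpin3* was 24.1% and 22.9% in the controls and 7.43% and 3.65% at 6 h. The order of the genes thus changed from *Lpin2* first at 0 h to *Lpin1* first at 6 h in both agents, although the levels of *Lpin2* and *Lpin3* themselves were not lower at 6 h. Set against *Gpam*, the summed lipins were at a TPM ratio of 0.378 and 0.456 in the sevoflurane and desflurane controls and of 8.40 and 17.0 at 6 h.

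**Figure D2:**
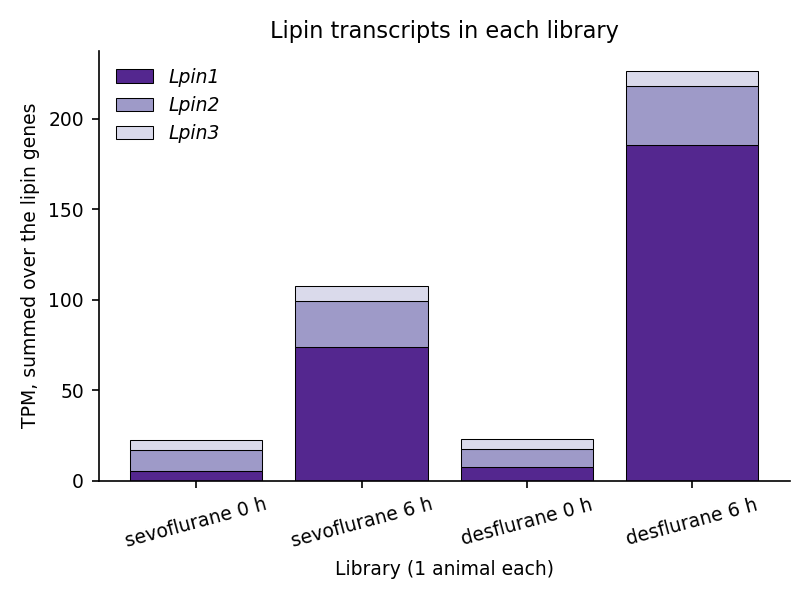
Summed TPM of the lipin genes (linear axis from 0) in each library, with the bar divided by gene and 1 animal per bar. The bars reach 22.3 and 22.9 TPM at 0 h and 107 and 226 TPM at 6 h, and the *Lpin1* segment takes up most of the height at 6 h.

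The genes of the last acylation step were not called with either agent. *Dgat1* (chr7:117566366-117576732, rn6, minus strand) was at 18.7 and 21.5 TPM at 0 h and 6 h of sevoflurane and at 22.7 and 23.8 TPM at 0 h and 6 h of desflurane. *Dgat2* (chr1:164113459-164143818, rn6, minus strand) was the most abundant of the 10 genes in both controls, at 129 TPM for sevoflurane and 182 TPM for desflurane, and stood at 153 and 154 TPM after 6 h of these agents. Its 2 anesthetized livers were almost equal and lay between its controls, so the ratio to 0 h was 1.18 with sevoflurane and 0.85 with desflurane. No direction is given for either gene, because that of *Dgat2* with each agent and that of *Dgat1* with sevoflurane changed sign when the control of the other agent was used. *Dgat2* supplied between 86.6% and 88.9% of the summed *Dgat* transcripts in the 4 libraries.

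*Pnpla2*, the lipase of the first step of triglyceride breakdown, was called higher with both agents. Its summed level was 8.94 and 27.1 TPM at 0 h and 6 h of sevoflurane and 10.6 and 55.4 TPM at 0 h and 6 h of desflurane. The controls were close to each other, whereas the desflurane 6 h library was the highest of the 4. The ratios were 3.03 and 5.21. The files list this gene at 2 places of equal length on the plus strand of rn6, chr1:213997732-214002814 and chr1:214434638-214439720, and how reads shared by both were divided is not known. Taken alone, the first place gave ratios of 2.76 and 5.19 and the second 3.31 and 5.23. *Pnpla3* (chr7:125034815-125055571, rn6, plus strand) was at 1.42 and 0.248 TPM at 0 h and 6 h of sevoflurane and at 0.228 and 0.729 TPM at 0 h and 6 h of desflurane. With coverage between 0.788 and 3.34 reads per base it was below the minimum in every library, and no difference is read from it.

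*Mfsd2a* (chr5:140642870-140657745, rn6, minus strand), the lysophosphatidylcholine transporter, reached the highest level of the 10 genes with desflurane. Its level was 10.9 TPM at 0 h and 149 TPM at 6 h of sevoflurane, and 35.2 TPM at 0 h and 281 TPM at 6 h of desflurane. Both anesthetized livers were above both controls, but the controls themselves were apart. The 6 h level was 13.7-fold higher with sevoflurane and 7.98-fold higher with desflurane, and the log2 changes of 3.66 and 2.96 ranked 11th of 8270 genes and 22nd of 8372. These ratios depended on the control. With the controls exchanged between agents, sevoflurane at 6 h was 4.22-fold and desflurane at 6 h 25.9-fold higher. For *Lpin1* the same exchange gave 9.96-fold and 33.2-fold.

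**Figure D3:**
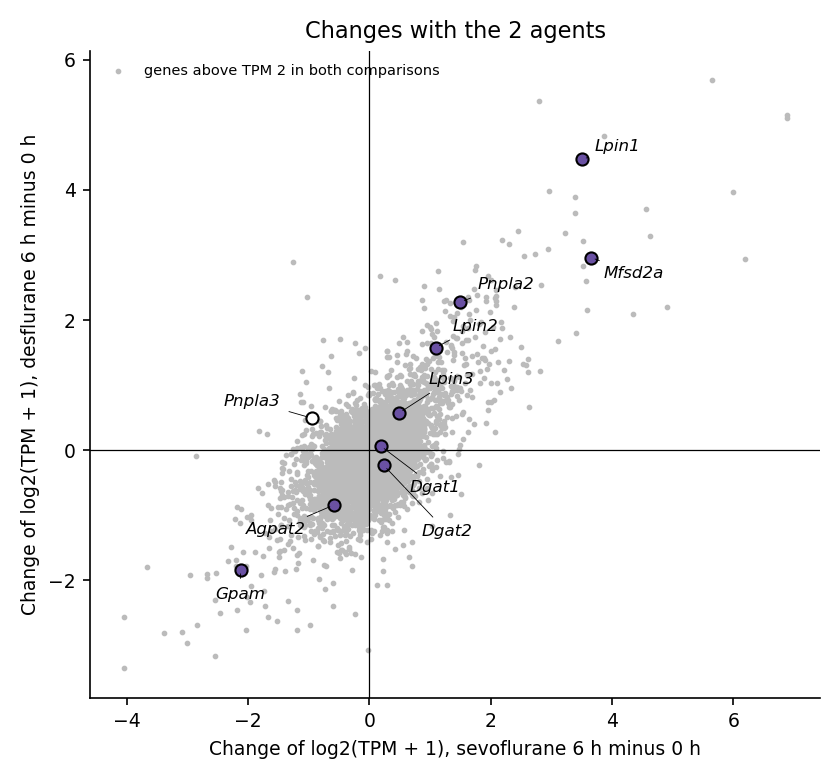
Change of log2(TPM + 1) from 0 h to 6 h with sevoflurane (horizontal) and desflurane (vertical), for the 10 genes (large points) and for all 8085 genes above 2 TPM in both comparisons (grey). *Lpin1* at 3.51 and 4.47 and *Mfsd2a* at 3.66 and 2.96 lie at the upper right, *Gpam* at -2.12 and -1.84 at the lower left, and the open point is *Pnpla3*, which was under 2 TPM.

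The pair of controls was compared to see how far single livers at 0 h differed. Of 8263 genes, 1.96% were called higher in the desflurane control and 0.799% lower. Among the 9 genes above the minimum, *Mfsd2a* was called higher, by 3.24-fold, and the other 8 were not called. This difference of *Mfsd2a* ranked 11th highest of 8263. The control ratios of *Lpin1*, *Lpin2* and *Pnpla2* were 1.33, 0.90 and 1.19. In these genes the distance of the 6 h livers from the controls thus exceeded that between both controls.

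The anesthetized livers were compared with each other to set the agents side by side, although the inhaled concentrations differed. Of 8229 genes, 2.21% were called higher after desflurane and 1.77% lower. *Lpin1* was called higher after desflurane, by 2.51-fold, and *Pnpla2* by 2.04-fold, which lay just inside the limit. At the second place of *Pnpla2* alone the ratio was 1.90, and that call was lost. *Mfsd2a*, at 1.89-fold, lay just outside. The other 6 genes above the minimum were not called. With 1 liver for each agent, whether these differences exceed the spread between animals could not be tested.

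Genes acting beside these 10 were taken from 7 lists drawn up by function, 113 of whose 122 genes were listed in the files. Earlier results of these libraries were known when the lists were drawn up, so no excess is read from the shares below. With sevoflurane, 9 of the 90 above the minimum (10%) were called higher and 8 (8.89%) lower, beside 5.04% and 3.71% of all genes. With desflurane, 9 of 93 (9.68%) were called higher and 3 (3.23%) lower, beside 4.1% and 5.55%. Of these, 7 genes were called higher and 3 lower with both agents. Over all genes, 205 were called higher and 121 lower with both agents, out of 8085 above the minimum in both comparisons. The median log2 change was 0.04 over the 90 pathway genes with sevoflurane and -0.02 over the 93 with desflurane, beside 0.05 and -0.10 over all genes tested.

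**Figure D4:**
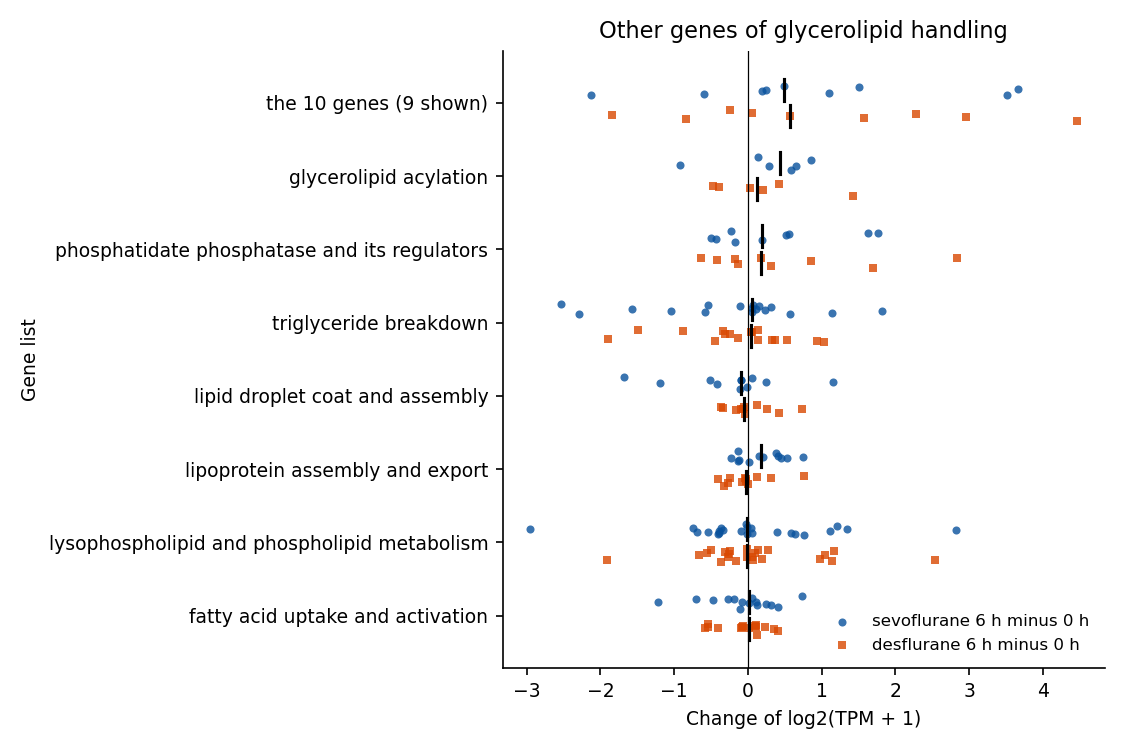
Change of log2(TPM + 1) from 0 h to 6 h for each gene above 2 TPM in at least 1 library (circles, sevoflurane, and squares, desflurane), by list, with short vertical lines at the medians. The points of the 10 genes, without *Pnpla3*, spread from -2.12 to 4.47. Those of lipoprotein assembly and export, none of which was called, spread from -0.41 to 0.77. The medians in the text take only genes above 2 TPM within each comparison and can differ from those drawn.

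Over all genes, 5.04% were called higher and 3.71% lower with sevoflurane, and 4.1% and 5.55% with desflurane. These shares stand beside the counts of each list below. In the list of phosphatidate phosphatases and their regulators, 2 of 9 genes were called higher with each agent and none lower. The median log2 change of the list was 0.20 with sevoflurane and 0.18 with desflurane. No phosphatase gene of the list was called, and the genes called were the nuclear partners of lipin 1. *Ppargc1a*, which encodes PGC-1α, was at 0.026 and 2.48 TPM at 0 h and 6 h of sevoflurane and at 0.412 and 9.09 TPM at 0 h and 6 h of desflurane, so its control levels were near the lower end of what these libraries resolve. It was also called higher in the desflurane than in the sevoflurane 6 h library. *Ppara* was at 9.70 and 32.1 TPM and at 12.7 and 43.6 TPM, with ratios of 3.30 and 3.42. In the list of glycerolipid acylation, none of 6 genes was called with sevoflurane and 1 with desflurane, and the medians were 0.44 and 0.12. The gene called was *Gpd1*, the enzyme that makes glycerol 3-phosphate, at 220 and 269 TPM at 0 h and 6 h of sevoflurane and 196 and 529 TPM at 0 h and 6 h of desflurane. *Gpat4*, another glycerol-3-phosphate acyltransferase gene, was not called and was named after its values were seen. Unlike *Gpam*, it was higher at 6 h, at 24.5 and 45.3 TPM with sevoflurane and 25.6 and 34.8 TPM with desflurane. *Gpat2* and *Gpat3* were under 2 TPM in every library.

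In the list of triglyceride breakdown, sevoflurane gave 2 calls on the higher and 4 on the lower side among 17 genes, and desflurane gave 1 and 2. The median log2 changes were 0.06 and 0.05. *G0s2*, an inhibitor of the PNPLA2 lipase, was at 281 and 56.9 TPM at 0 h and 6 h of sevoflurane and at 172 and 60.5 TPM at 0 h and 6 h of desflurane. The TPM of *Pnpla2* was thus 0.0318 and 0.0618 times that of *G0s2* in the sevoflurane and desflurane controls and 0.476 and 0.915 times at 6 h. *Abhd5*, the activator of the same lipase, was at 34.1 and 16.0 TPM and at 28.1 and 14.8 TPM. It was called lower with sevoflurane at 2.13-fold, and at 1.90-fold it fell outside the limit with desflurane (it was named after its values were seen). *Angptl8*, a secreted regulator of lipoprotein lipase, was 6.22-fold and 4.02-fold lower. *Ces2c*, a carboxylesterase, was called higher with ratios of 3.78 and 2.15. The remaining calls of this list, all with sevoflurane only, were *Angptl4* on the lower and *Pnpla7* on the higher side, also named after their values were seen. *Angptl4* was at 74.5 and 24.3 TPM with sevoflurane and at 38.7 and 28.1 TPM with desflurane, and its controls were 1.92-fold apart. *Pnpla7* was at 20.2 and 45.6 TPM and at 22.8 and 44.5 TPM. Its ratio with desflurane, 1.95, lay just outside the limit.

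In the list of lysophospholipid and phospholipid metabolism, sevoflurane gave 4 calls on the higher side and 1 on the lower side among 22 genes, and desflurane gave 5 and 1 among 23. The median log2 changes were -0.02 and -0.01. *Pla2g12a*, a secreted phospholipase A2, was at 3.87 and 33.5 TPM at 0 h and 6 h of sevoflurane and at 10.5 and 66.1 TPM at 0 h and 6 h of desflurane. Like *Mfsd2a*, it was called higher in the desflurane than in the sevoflurane control. *Pla2g15*, a lysosomal phospholipase, had ratios of 2.32 and 2.20. *Gpcpd1*, which cleaves glycerophosphocholine, had ratios of 2.52 and 2.51, and *Ptdss2*, a phosphatidylserine synthase, 2.79 and 2.11. *Pcyt1a*, which acts later in phosphatidylcholine synthesis and was named after its values were seen, was called with desflurane at a ratio of 2.39 and not with sevoflurane at 1.78. *Chka*, the choline kinase that opens phosphatidylcholine synthesis, was at 38.6 and 4.12 TPM and at 31.6 and 7.67 TPM, 9.36-fold and 4.13-fold lower.

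In the list of lipid droplet coat and assembly, 1 of 10 genes was called higher and 2 lower with sevoflurane and none of 11 with desflurane, with medians of -0.10 and -0.05. *Fitm2*, which acts in droplet formation, was at 12.6 and 29.3 TPM at 0 h and 6 h of sevoflurane and at 13.2 and 22.6 TPM at 0 h and 6 h of desflurane. *Cidea*, a droplet protein, was at 9.12 and 2.15 TPM and at 7.25 and 8.84 TPM. *Plin2*, the main droplet coat gene of hepatocytes (named after its values were seen), was at 199 and 86.6 TPM and at 270 and 209 TPM. None of the 12 genes of lipoprotein assembly and export was called with either agent, and their medians were 0.18 and -0.03. Of the genes of fatty acid uptake and activation, 1 of 14 was called lower with sevoflurane, *Acsl3*, an acyl-CoA synthetase of the droplet, at 12.4 and 4.78 TPM at 0 h and 6 h. None of 15 was called with desflurane, and the medians were 0.03 and 0.02.

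Profiles over the 4 libraries were compared by the Euclidean distance of centred log2(TPM + 1) among 8024 genes with a mean of at least 2 TPM. Nearest to *Lpin1* were *Gadd45b* (a stress-induced gene) at a distance of 0.40, *Ciart* (a repressor of the circadian clock) at 0.49, *Alas1* (the first enzyme of heme synthesis) at 0.79, *Igfbp1* at 0.87 and *Noct* (the clock-controlled nocturnin) at 0.93, against a median over genes of 4.15. *Gadd45b* was at 1.31 and 32.8 TPM at 0 h and 6 h of sevoflurane and at 1.60 and 72.5 TPM at 0 h and 6 h of desflurane. Nearest to *Mfsd2a* were *Pla2g12a* at 0.68, *Noct* at 0.73, *Zfp354a* at 0.83, *Hsd17b2* at 0.93 and *Usp2* at 0.96, against a median of 3.58. *Noct* was near both, and *Lpin1* and *Mfsd2a* themselves were 1.15 apart. Over 4 libraries such likeness is a description only.

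The files also hold loci that the assembler built from the reads in each library, a second reading of the same sequence. For the 9 genes above 2 TPM, the longest same-strand locus (for *Pnpla2*, both places summed) had a TPM between 90.4% and 142% of that of the named gene, with a median of 100%, and 26 of 36 values lay within 10% of it. The *Mfsd2a* locus matched the annotated ends exactly in all 4 libraries, with 100% of the named TPM, so it is no separate check on the named gene. The same held for *Pnpla2* in every library but sevoflurane 6 h and for *Dgat2* at 0 h of sevoflurane. The count of values within 10% includes all of these. How far the assembly was guided by the annotation is not known. At *Lpin1*, by contrast, no locus reached the annotated start. The longest one covered the 3′ part of the gene and had 7.95 and 77.7 TPM at 0 h and 6 h of sevoflurane and 8.55 and 198 TPM at 0 h and 6 h of desflurane. A shorter one lay upstream of it, with 3.08 and 49.8 TPM and with 6.15 and 117 TPM. This upstream locus began 17076 bp inside the annotated start in both 6 h libraries, but 27044 bp inside at 0 h of sevoflurane and 27219 bp inside at 0 h of desflurane. Control coverage of *Lpin1* was far lower, and its part in the shorter locus was not tested.

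**Figure D5:**
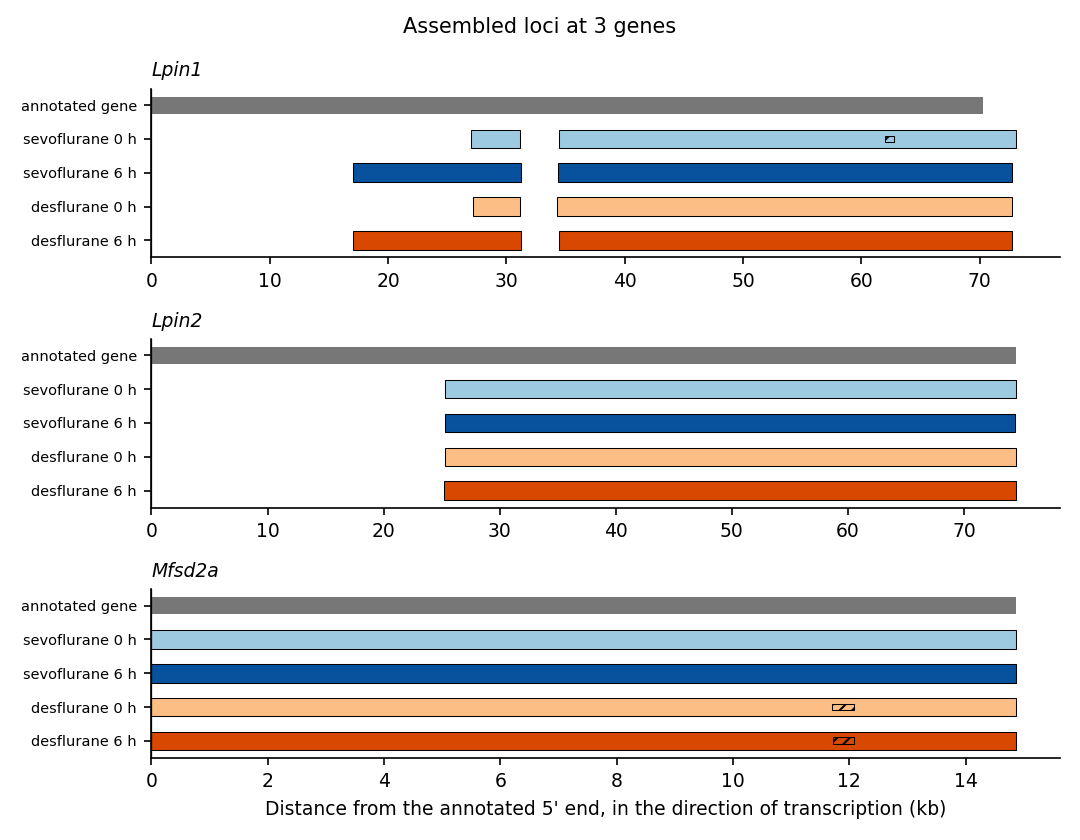
Extent of the assembled loci in each library (coloured bars) against the annotated gene (grey) for *Lpin1*, *Lpin2* and *Mfsd2a*, in kb from the annotated 5′ end. Hatched bars are loci on the opposite strand, and loci without a strand are not drawn. The upstream *Lpin1* locus begins 17076 bp from the annotated 5′ end in both 6 h libraries and about 10 kb further in at 0 h, and *Mfsd2a* is covered from end to end.

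The *Lpin2* locus began between 25166 and 25285 bp inside the annotated start in all 4 libraries. The promoter windows printed for *Lpin1* and *Lpin2* lie at starts annotated in GRCr8, and coordinates were not carried between builds. By length, however, the *Lpin1* window start lies 70033 bases from the end of the gene in GRCr8, close to the 70299 bases of the rn6 gene, and that of *Lpin2* 74442 bases, close to 74433. The whole *Lpin1* gene spans 106736 bases in GRCr8, so its window is not at the outermost start there. Both windows sit at about the rn6 annotated starts, which no assembled locus reached in these libraries. The matches in the *Lpin1* window thus lie away from the 5′ ends assembled here. The *Gpam* locus ran over 3 kb beyond the annotated 3′ end in each library and had 121% to 132% of the TPM of the named gene, and it too was lower at 6 h, at 75.7 and 16.9 TPM with sevoflurane and 64.0 and 16.2 TPM with desflurane.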

How the data were processed

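Liver RNA kept in RNAlater was extracted with the RNeasy Midi kit and made into libraries with the TruSeq Stranded Total RNA Gold kit, per the labels. The submitters' processing notes name HISAT2, SAMtools, StringTie and the rn6 build. The sources used here give neither their versions nor the annotation. For every gene, the authors deposited TPM, FPKM and coverage per gene and no read counts. In each deposited table the TPM of assembled loci added to a fixed total, and named genes came to between 76.6% and 78.9% of that total on top, so TPM was handled as a score with no fixed total. The deposited FPKM and the deposited coverage signal served to give depth, as their ratio is the aligned sequence in Gb.

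Rows of 200 bp or less were left out and rows of 1 symbol were summed. Samples were grouped by their labels, 1 library a group, so no test was run. A call needed a TPM above 2 in the higher library and a ratio above 2. Log2 changes used a pseudocount of 1. Besides the 10 genes, the text names pathway genes called in the same direction with both agents, the largest change per direction, agent and list, and the 5 nearest profiles to *Lpin1* and to *Mfsd2a*. Members and lists were chosen with earlier results of these data known. Other scalings, controls, minimums, ratios, pseudocounts and row choices were tried. Python 3.11.15, pandas 2.3.3 and numpy 2.4.6 were used.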

Additional observations from a re-analysis of the deposited data

Results flagged for a closer look

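Of the 10 genes and the other pathway genes named by the rule, *Dgat2*, *Pnpla3* and *Cidea* had log2 changes of opposite sign with the agents, each with 1 library on either side, and the difference was not tested. The log2 change of *Dgat2* was 0.24 with sevoflurane and -0.24 with desflurane, that of *Pnpla3*, under 2 TPM in all libraries, -0.95 and 0.49, and that of *Cidea* -1.68 and 0.25. No direction is read from *Dgat2* or *Pnpla3*, since with the controls exchanged between agents these values became -0.25 and 0.25 for *Dgat2* and 0.02 and -0.48 for *Pnpla3*. The sign of *Cidea* with desflurane also depended on the control. Its level at 6 h of desflurane, 8.84 TPM, lay between the desflurane control at 7.25 TPM and the sevoflurane control at 9.12 TPM. At 6 h of sevoflurane, *Cidea* was at 2.15 TPM, below both controls. A locus on the strand opposite to *Mfsd2a*, inside the gene and used in no comparison above, was assembled at 22.7 TPM in the desflurane 6 h library and at 1.94 TPM in its control, 8.07% and 5.50% of the *Mfsd2a* level there. No such locus was assembled in either sevoflurane library.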

How the results depend on the processing

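Each group held 1 library, so the data show no spread between animals, and leaving out a replicate was not possible. No paired analysis was possible because the labels carry no replicate numbers. Of 124 recomputed counts of calls, 106 stayed within 1.5 times the value reported, and of 180 recomputed log2 changes 139 moved by less than the difference between both controls for that gene. Part of the latter number was fixed in advance. The control of the other agent moved each value by just that difference, and the mean of both controls always by less. Keeping short rows altered none of the 10 genes, and using the highest row altered only *Pnpla2*. The number is therefore no measure of stability. Of the 10 genes, the 5 called with the agents kept the sign of their log2 changes under every alternative run, whereas single pathway genes were not recomputed. Dividing each library by its median of ratios took the median log2 change of all genes with sevoflurane from 0.05 to -0.001, that with desflurane from -0.10 to -0.006, and the difference between controls from 0.12 to 0.004. Relative to this shift, the sign of every log2 change of the 10 genes held, except that the small control difference of *Agpat2* changed from 0.09 to -0.04.

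The number of the 10 genes called lower with sevoflurane became 2 when named genes without *Rn7sl1* were scaled to one fixed total, with a minimum of 1 TPM, with no minimum and with a ratio of 1.5. Between the controls the number called lower became 1 under the former 3 of these settings. With desflurane it became 2 at a ratio of 1.5. The number called higher between the 6 h libraries became 0 at a ratio of 3 and 1 when the highest row of each symbol was used. For the other pathway genes, a ratio of 1.5 gave 19 on the higher side with sevoflurane, and with desflurane 14 higher and 10 lower. A ratio of 3 gave 4 higher and 5 lower with sevoflurane, and 3 on the higher side with desflurane. With the control of the other agent, or the mean of both controls, 5 were lower with desflurane.

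The choice of control moved *Mfsd2a* the most. Over all alternatives its log2 change with sevoflurane ranged from 2.05 to 3.76 and that with desflurane from 2.83 to 4.57. That of *Lpin1* ranged from 2.90 to 3.71 and from 3.94 to 4.83, and that of *Gpam* from -2.20 to -1.85 and from -2.06 to -1.59. The use of assembled loci in place of named genes was chosen after seeing the data.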
